A study of Mus musculus with 4 samples.

Results

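The BCL2 family decides whether a cell keeps or loses the integrity of its mitochondrial outer membrane, and 10 of its genes were followed here in thymic invariant natural killer T (iNKT) cells of mice with a conditional knockout of the RNA methyltransferase gene Mettl3. The genes were taken by name from the deposited count table, by no rule on their values but with earlier results of these data known. They are Bcl2, Bcl2l1, Mcl1, Bcl2a1b, Bcl2a1d, Bcl2l11, Bid, Bik, Bmf and Bak1, which are 10 of the 53715 genes in the table. All 10 had enough reads to be tested. The Mettl3 knockout group, Mettl3fl/flCD4-cre, carried a floxed Mettl3 gene and a Cre recombinase under Cd4 control, which acts in the T cell lineage of the thymus. The wild-type (WT) group is labelled with no allele. Both groups were C57BL/6 mice aged 6 to 8 weeks, with 2 libraries each, and no treatment is listed. Viable thymocytes positive for TCRβ and for CD1d tetramer binding were sorted, and full-length cDNA libraries were made by Smart-seq2. Whether the libraries of a genotype came from separate or pooled animals is not given in the labels, so the p-values measure library-to-library spread that may be technical.

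In this family, the survival proteins BCL2, BCL-XL, MCL1 and A1 hold the effectors BAK and BAX in check. The BH3-only proteins, among them BIM, BID, BIK and BMF, bind the survival proteins or the effectors directly, and active BAK and BAX then open the outer membrane and release cytochrome c to the caspases. In the thymus, BIM is a main executioner of negative selection, and iNKT cells depend on cytokine-driven survival genes as they mature.

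Depth was between 24374587 and 28316016 counts per library. Mettl3 itself was at 78.1 and 91.4 CPM (a count scaled to library size) in the knockout and at 92.2 and 123.6 CPM in WT, and the difference did not pass the test (edgeR quasi-likelihood with Benjamini-Hochberg adjustment, adjusted p = 0.357). Reads from exons outside the deleted part also count, so this value does not check the deletion. Of 8 T and iNKT cell identity genes 1, Cd5, was higher and 1, Trac, was lower. For this and the following marker lists, the shares over all tested genes were 1.09% higher and 1.51% lower. The T cell genes Cd3e, Cd3d, Cd3g, Trac and Trbc2 and the iNKT regulator Zbtb16 were counted in all 4 libraries, at 124.4 CPM or more. Marker genes of iNKT subsets differed between the genotypes. Of 8 NKT1 markers 7 were lower, with summed levels of 2320 and 2310 CPM in the knockout against 4041 and 5078 CPM in WT. Il2rb, the largest part of these sums, did not pass, at 1573 and 1572 CPM against 1746 and 2350 CPM (edgeR adjusted p = 0.165). Of 8 NKT17 markers 5 were lower, at 320.8 and 290.1 CPM against 579.6 and 462.9 CPM. Il17rb, the largest part of the knockout sums, went the other way, at 232.3 and 196 CPM in the knockout against 149.7 and 103.5 CPM in WT. It did not pass with edgeR (adjusted p = 0.0889) and passed with DESeq2 (adjusted p = 0.00386). Of 8 markers of stage 0, the earliest iNKT stage, 4 were higher, at 3548 and 3623 CPM against 2173 and 1988 CPM, and so were 3 of 8 NKT2 markers, at 2293 and 2225 CPM against 1937 and 1526 CPM. The NKT2 marker Plac8 was on the lower side, at 55.1 and 63.3 CPM in the knockout against 99.0 and 85.5 CPM in WT (edgeR adjusted p = 0.0977, DESeq2 adjusted p = 0.0179). Izumo1r, a large part of the NKT2 sums, overlapped between the genotypes. Of 9 myeloid and dendritic cell markers tested 4 were higher, with 430.2 and 488.1 CPM in the knockout against 48.3 and 70.6 CPM in WT, and no member of that list was at 0 in all libraries. Most of these sums was Lyz2, at 324.6 and 385.6 CPM in the knockout and 29.6 and 47.5 CPM in WT. DESeq2 called 2 of the list higher, and Cst3 and C1qa had negative log2 fold changes (-0.65 and -0.14). For CD4+CD8+ thymocyte markers, 0 of 9 passed, at 1340 and 1220 CPM against 818.2 and 947.4 CPM (5 were higher and 1 lower at unadjusted p under 0.05, and DESeq2 called 5 higher). Of the B cell list 1 of 5 tested genes was lower, Blk, which is also an NKT17 marker, and Pax5 was at 0 throughout, while the other 4 tested genes had positive log2 fold changes, with sums of 49.0 and 36.1 CPM in the knockout and 155.7 and 114.7 CPM in WT. Neutrophil markers summed to 0.894 and 1.08 CPM in the knockout and 0.213 and 0.358 CPM in WT, with Ly6g and Csf3r at 0, and 0 of 1 tested gene passed (0 also at unadjusted p under 0.05 and by DESeq2). Stroma and erythroid markers summed to 12.9 and 11.1 CPM in the knockout and 11.4 and 14.4 CPM in WT, and 0 of 5 passed (2 at unadjusted p under 0.05 and 0 by DESeq2). Fewer cells of a type and less RNA per cell cannot be told apart in such bulk samples, and what these shifts contribute to the values of the BCL2 family genes was not tested.

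None of the 10 genes passed the test between the genotypes. The edgeR count was 0 of 10 at an adjusted p under 0.05, where 2.59% of the 14185 tested genes passed, 1.09% higher and 1.51% lower in the knockout. DESeq2 also called 0 of 10, against 9.45% of tested genes (4.69% higher and 4.77% lower), and limma voom 0 of 10, against 1.99%. At an unadjusted p under 0.05 there were 3 of 10, against 20.2% of tested genes: Bcl2l1 was on the higher side in the knockout (10.5% of tested genes), and Bid and Bik on the lower side (9.69%). The libraries of the genotypes did not overlap for 6 of the 10, and 50.3% of all tested genes had no overlap. Positive log2 fold changes, knockout over WT, were found for 6 of 10 genes and for 51.3% of tested genes. The median was 0.049 over the 10 genes and 0.016 over all tested genes. By role, of the 5 survival genes 4 had positive values and 1 a negative value, of the 4 BH3-only genes 3 had negative values, and the effector Bak1 had a positive value. For 5 genes, Bcl2, Bcl2l1, Mcl1, Bcl2a1d and Bcl2l11, the 95% interval of the fold change left out a 2-fold difference in either direction.

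**Figure D1:**
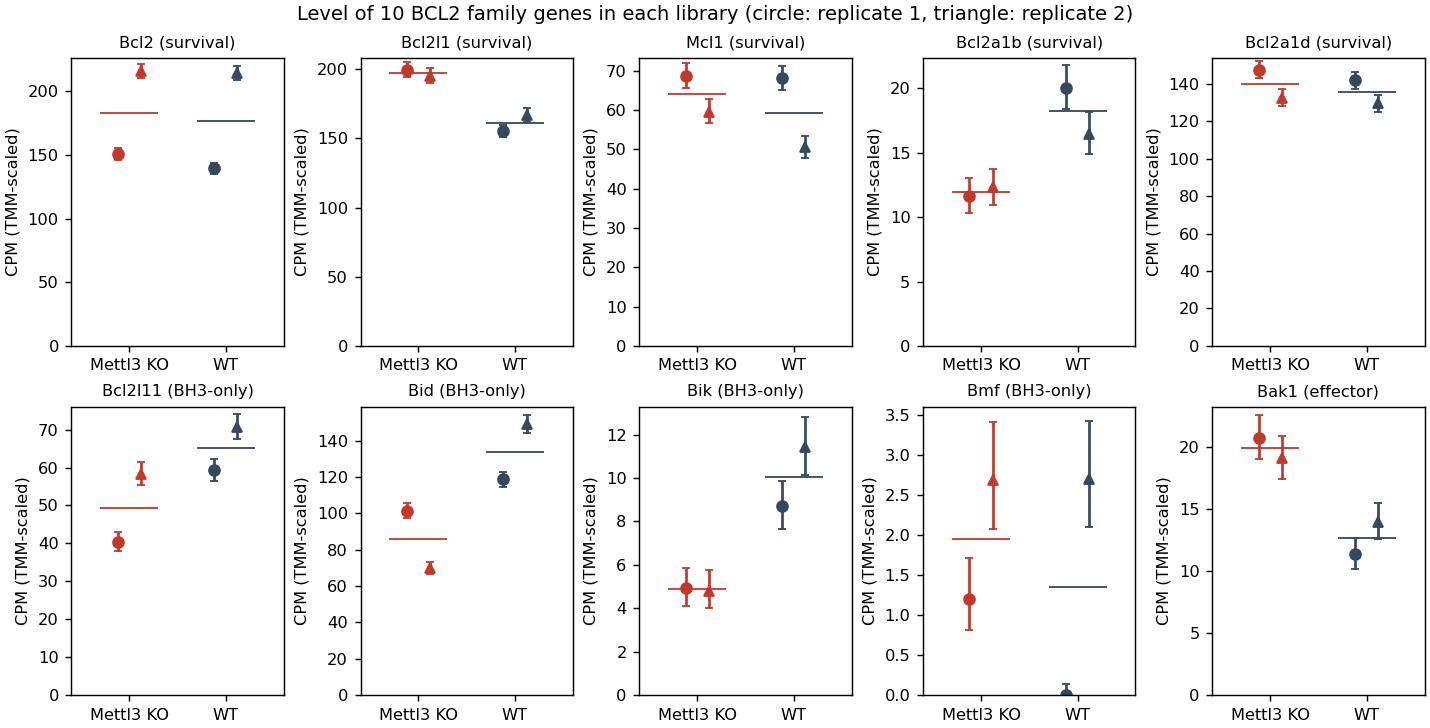
Level of each gene in CPM (vertical axes, linear, from 0) in the Mettl3 knockout libraries (red, left) and WT libraries (dark, right). Circles are replicate 1, triangles replicate 2, vertical bars the 95% Poisson interval of the count, and horizontal lines the mean of a genotype. Bcl2l1 and Bak1 lie above WT in both knockout libraries, Bcl2a1b, Bcl2l11, Bid and Bik below WT, and the other genes overlap.

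Among the survival genes, Bcl2 encodes the founding member and maintains resting T cells. Bcl2 (ENSMUSG00000057329.7, GRCm38 chromosome 1, 106538178 to 106714274, minus strand) was at 150.8 and 216.0 CPM in knockout replicates 1 and 2 and at 139.5 and 214.6 CPM in WT replicates 1 and 2. The genotypes overlapped almost fully, and the spread within each genotype exceeded the difference between them. This gave a log2 fold change of 0.054, with an SE of 0.24 and a 95% interval of -0.51 to 0.61 (edgeR adjusted p = 0.936). Its sign rested on single libraries: it was -0.24 without WT replicate 1 and -0.23 without knockout replicate 2, against 0.39 without WT replicate 2.

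Bcl2l1 encodes BCL-XL, which protects CD4+CD8+ thymocytes in particular. Bcl2l1 (ENSMUSG00000007659.18, chromosome 2, 152780668 to 152831728, minus strand) was at 199.7 and 195.1 CPM in the knockout and at 155.3 and 166.7 CPM in WT. Both knockout libraries lay above both WT libraries, with means of 197.4 ± 3.26 CPM in the knockout and 161.0 ± 8.10 CPM in WT (SD, n = 2 each). The log2 fold change of 0.29 (SE 0.12, 95% interval 0.02 to 0.57) had an unadjusted p of 0.0395 and did not pass after adjustment (edgeR adjusted p = 0.217, DESeq2 adjusted p = 0.143). It stayed between 0.23 and 0.35 when any 1 library was left out.

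Mcl1 encodes a short-lived survival protein that lymphocytes need at nearly every stage. Mcl1 (ENSMUSG00000038612.16, chromosome 3, 95658788 to 95663176, plus strand) was at 68.7 and 59.6 CPM in the knockout and at 68.1 and 50.6 CPM in WT. The ranges overlapped, and the log2 fold change of 0.11 had an SE of 0.20 and a 95% interval of -0.37 to 0.58 (edgeR adjusted p = 0.825). Without WT replicate 2 it was -0.084.

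The mouse has several copies of the A1 survival gene on chromosome 9, and the 2 followed here are almost identical. Bcl2a1d (ENSMUSG00000099974.1, 88723285 to 88731914, minus strand) and Bcl2a1b (ENSMUSG00000089929.1, 89199209 to 89207827, plus strand) have coding sequences of 516 bases that differ at 6 bases, an identity of 98.8%. The stretches that hold all 6 are shown, counted from the start codon, because reads can be told apart only where they cover one of these bases or the ends of the transcripts. They come from the GENCODE M21 transcripts on GRCm38, 5′ to 3′, with the differing bases in capitals.
Bcl2a1d, bases 1 to 100: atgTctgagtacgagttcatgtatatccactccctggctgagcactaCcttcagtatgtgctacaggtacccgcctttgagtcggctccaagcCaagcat
Bcl2a1b, bases 1 to 100: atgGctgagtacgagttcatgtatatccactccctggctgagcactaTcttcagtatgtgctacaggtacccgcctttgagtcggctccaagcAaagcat
Bcl2a1d, bases 301 to 500: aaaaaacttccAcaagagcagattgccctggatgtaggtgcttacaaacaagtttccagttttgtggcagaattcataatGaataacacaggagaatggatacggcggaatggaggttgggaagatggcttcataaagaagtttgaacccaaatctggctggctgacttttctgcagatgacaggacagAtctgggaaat
Bcl2a1b, bases 301 to 500: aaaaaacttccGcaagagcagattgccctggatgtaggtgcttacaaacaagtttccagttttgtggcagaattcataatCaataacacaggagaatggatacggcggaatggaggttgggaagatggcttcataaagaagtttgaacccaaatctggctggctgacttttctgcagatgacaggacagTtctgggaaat
Of all 50-base windows along a transcript, 20.5% in Bcl2a1d and 42.4% in Bcl2a1b were found in no other A1 copy, and of all 100-base windows 45.3% and 68.9%. The read length is not given in the sources used here. In addition 49.1% of the exon bases of Bcl2a1b also belong to the annotated gene Gm29094 on the same strand, which held 0 counts in all 4 libraries. How reads with several possible origins were counted is not given in the sources used here, so the level of each copy is uncertain.

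The copies gave unlike values. Bcl2a1d was at 147.6 and 132.5 CPM in the knockout and at 141.8 and 129.6 CPM in WT, with overlapping ranges and a log2 fold change of 0.045 whose 95% interval was -0.27 to 0.36 (edgeR adjusted p = 0.900). Bcl2a1b was at 11.6 and 12.3 CPM in the knockout and at 20.1 and 16.5 CPM in WT, so that both knockout libraries lay below both WT libraries. The fitted difference was -0.62 on the log2 scale (SE 0.30) with a 95% interval of -1.31 to 0.08 (edgeR adjusted p = 0.301). Counts of Bcl2a1d were 12.7 and 10.8 times those of Bcl2a1b in the knockout libraries and 7.07 and 7.87 times in the WT libraries, a shift that was not tested. Of the remaining copies, Bcl2a1a held 19 and 21 counts in the knockout and 43 and 2 counts in WT, and Bcl2a1c held 0 counts in every library. With the 4 copies summed to 1 feature, the level was 160.0 and 145.7 CPM in the knockout and 163.4 and 146.2 CPM in WT. For this sum the 95% interval of the log2 fold change, -0.024, was -0.33 to 0.28 (edgeR adjusted p = 0.947).

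Of the 4 BH3-only genes among the 10, 3 were on the lower side in the knockout, where 51.3% of all tested genes had positive values. Outside the 10, the BH3-only genes Pmaip1 and Bbc3 were on the higher side and Bad on the lower (log2 fold change 1.97, 0.55 and -0.17). Bcl2l11 encodes BIM, which binds all survival proteins and drives the death of autoreactive thymocytes. Bcl2l11 (ENSMUSG00000027381.16, chromosome 2, 128126038 to 128162547, plus strand) was at 40.4 and 58.4 CPM in the knockout and at 59.4 and 70.8 CPM in WT. The higher knockout library lay just under the lower WT library. On the log2 scale the fold change was -0.40, with an SE of 0.22 and a 95% interval of -0.92 to 0.13 (edgeR adjusted p = 0.377), and it ranged from -0.69 without knockout replicate 2 to -0.15 without knockout replicate 1.

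Bid encodes the link from death receptors and granzymes to mitochondria, since caspase-8 or granzyme B cuts it into an active form. Bid (ENSMUSG00000004446.12, chromosome 6, 120891930 to 120916853, minus strand) was at 101.4 and 69.8 CPM in the knockout and at 118.6 and 149.1 CPM in WT. Both knockout libraries lay below both WT libraries, with means of 85.6 ± 22.4 CPM in the knockout and 133.8 ± 21.6 CPM in WT (SD, n = 2 each). The knockout over WT difference on the log2 scale, -0.64 (SE 0.21, 95% interval -1.13 to -0.15), had the smallest unadjusted p of the 10 genes at 0.0174. It did not pass after adjustment (edgeR adjusted p = 0.150, DESeq2 adjusted p = 0.0579), and it ranged from -0.94 without knockout replicate 1 to -0.40 without knockout replicate 2. Of the exon bases of Bid 17.7% are shared with Bcl2l13 on the opposite strand, and since Smart-seq2 does not mark strand, reads there could belong to either gene. Bcl2l13 was at 89.6 and 79.8 CPM in the knockout and at 92.7 and 103.2 CPM in WT (edgeR adjusted p = 0.508).

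Bik encodes a BH3-only protein found mainly at the endoplasmic reticulum. Bik (ENSMUSG00000016758.4, chromosome 15, 83526862 to 83544634, plus strand) held 127 and 120 counts in the knockout and 245 and 287 counts in WT, which is 4.94 and 4.82 CPM against 8.71 and 11.4 CPM. The knockout libraries were close to each other and below both WT libraries, 2.05-fold lower by the model. On the log2 scale this was -1.04, with an SE of 0.41, a 95% interval of -2.01 to -0.07 and an unadjusted p of 0.0394, and it did not pass after adjustment (edgeR adjusted p = 0.217, DESeq2 adjusted p = 0.250). Leaving out single libraries gave -1.24 to -0.84.

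Bmf encodes a BH3-only protein bound to the actin and myosin cytoskeleton in resting cells. Bmf (ENSMUSG00000040093.15, chromosome 2, 118528757 to 118549687, minus strand) held 31 and 67 counts in the knockout and 0 and 68 counts in WT. The libraries of a genotype differed more from each other than the genotypes did, and a count of 0 in WT replicate 1 allows up to 0.107 CPM (3 counts). The log2 fold change of 0.59 had a 95% interval of -2.0 to 3.19 (edgeR adjusted p = 0.825), so a difference of several fold in either direction lies within it.

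Bak1 encodes BAK, the effector that sits in the outer membrane even in healthy cells. Bak1 (ENSMUSG00000057789.13) held 535 and 477 counts in the knockout and 319 and 352 counts in WT, which is 20.8 and 19.1 CPM against 11.3 and 14.01 CPM. Both knockout libraries lay above both WT libraries, with means of 20.0 ± 1.17 CPM in the knockout and 12.7 ± 1.88 CPM in WT (SD, n = 2 each). With an SE of 0.29, the log2 fold change of 0.66 had a 95% interval of -0.01 to 1.34 (edgeR adjusted p = 0.256, DESeq2 adjusted p = 0.317), and it lay between 0.50 and 0.82 with single libraries left out. Bak1 overlaps Ggnbp1 on the opposite strand, whose level was 1.40 and 2.69 CPM in the knockout and 1.14 and 2.63 CPM in WT.

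**Figure D2:**
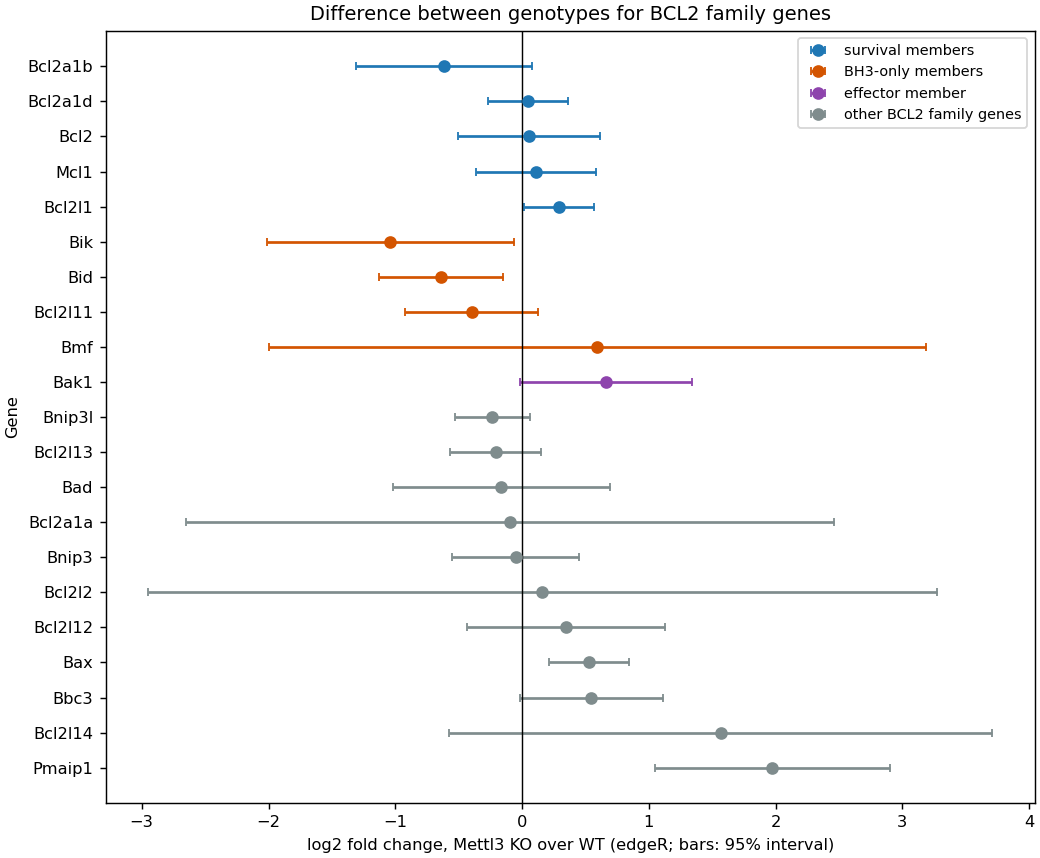
Log2 fold change, Mettl3 knockout over WT (horizontal axis), of the 10 genes by role and of the 11 other BCL2 family genes that could be tested, with 95% intervals from edgeR. The intervals of Bcl2l1 (0.02 to 0.57), Bid (-1.13 to -0.15), Bik (-2.01 to -0.07), Bax and Pmaip1 lie on 1 side of 0, and no gene passed at an adjusted p under 0.05.

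To compare genes with each other, levels were divided by exon length and are given as RPKM, the CPM per kilobase of exon. Bcl2a1d stood highest in both genotypes, at 162.3 ± 12.4 RPKM in the knockout and 157.3 ± 9.94 RPKM in WT (SD, n = 2 each). Next in the knockout were Bcl2l1 at 43.1, Bid at 24.1, Bcl2 at 20.0, Mcl1 at 18.8, Bcl2a1b at 14.6, Bak1 at 8.29, Bcl2l11 at 6.15, Bik at 3.06 and Bmf at 0.37 RPKM. In that order Bid overlapped Bcl2 and Bcl2 overlapped Mcl1, and the other adjacent pairs did not overlap between libraries. In WT, Bid at 37.7 RPKM overlapped Bcl2l1 at 35.1 RPKM, and they were followed by Bcl2a1b at 22.4, Bcl2 at 19.3, Mcl1 at 17.4, Bcl2l11 at 8.11, Bik at 6.33, Bak1 at 5.27 and Bmf at 0.26 RPKM. There Bcl2a1b overlapped Bcl2, Bcl2 overlapped Mcl1 and Bik overlapped Bak1. The place of Bak1 relative to Bcl2l11 and Bik thus differed between the genotypes, which is a description of 2 libraries each.

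Summed by role on the same length-divided scale, the 5 survival genes came to 265.4 and 252.2 RPKM in the knockout and to 257.9 and 245.0 RPKM in WT, with overlapping ranges. Bcl2a1d, whose own level is uncertain, made up 171 and 153.6 RPKM of this in the knockout and 164.3 and 150.2 RPKM in WT. The survival sum therefore mostly follows that gene and says little about the others, of which Bcl2l1 lay higher and Bcl2a1b lower in the knockout without overlap. The 4 BH3-only genes came to 36.9 and 30.5 RPKM in the knockout and to 46.3 and 58.5 RPKM in WT, without overlap, and Bid made up most of that sum. This gap depends on which genes are summed: with the BH3-only genes Bad, Bbc3 and Pmaip1 added, the sums were 82.0 and 84.6 RPKM in the knockout and 74.2 and 95.4 RPKM in WT, which overlap. Per unit of length, Bcl2 was 3.27 and 3.24 times Bcl2l11 in the knockout libraries and 2.06 and 2.66 times in the WT libraries. These sums and ratios were not tested.

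METTL3 methylates adenosines mostly within short motifs such as GGACU, spelled GGACT in DNA letters. The motif was counted on the sense strand of the longest protein-coding GENCODE M21 transcript of each gene, and no methylation was measured here. Over 11701 tested coding genes the median was 1.05 motifs per kilobase, and 92.4% held at least 1. Among the 10 genes, Mcl1 had the most per kilobase, 8 motifs in 3418 bases or 2.34 per kilobase, followed by Bmf with 9 or 1.94, Bid with 4 or 1.83 and Bak1 with 4 or 1.68. Bcl2 held 9 motifs (1.25 per kilobase), Bcl2l1 3 (1.17), Bcl2l11 5 (0.993) and Bik 1 (0.749), and both A1 copies held 0. The sites of the 3 genes with an unadjusted p under 0.05 are shown, 5′ to 3′ on the transcript strand, with the motif in capitals and 10 bases on each side.
Bid, 5′ UTR, chr6:120901764-120901788, minus strand: gtgattccctGGACTctgtgagctg
Bid, coding, across an exon junction: cttgtgccatGGACTctgaggtcag
Bid, coding, across an exon junction: gaaacgagatGGACTgaggagcccg
Bid, 3′ UTR, chr6:120892968-120892992, minus strand: tgctgactggGGACTgaggtgtggt
Bcl2l1, 5′ UTR, chr2:152830006-152830030, minus strand: tttggacaatGGACTggttgagccc
Bcl2l1, coding, chr2:152829876-152829900, minus strand: gaagagaataGGACTgaggccccag
Bcl2l1, 3′ UTR, chr2:152781253-152781277, minus strand: cagggtcaagGGACTctggcctcag
Bik, 3′ UTR, chr15:83544548-83544572, plus strand: aggatctactGGACTagagtccttt
Coordinates are GRCm38. The Bid sites fall in both untranslated regions and in the coding sequence, and a match of the letters does not show a methylated site.

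The wider BCL2 family held the largest difference, in Pmaip1, which encodes NOXA, a p53-induced BH3-only protein that binds MCL1. Pmaip1 (ENSMUSG00000024521.7) held 624 and 462 counts in the knockout and 108 and 182 counts in WT, which is 24.2 and 18.5 CPM against 3.84 and 7.25 CPM. Both knockout libraries lay well above both WT libraries. On the log2 scale it was 1.97 higher (SE 0.40), which missed the threshold narrowly (edgeR adjusted p = 0.0512). It passed with DESeq2 (adjusted p = 0.00151), with total-count scaling (edgeR adjusted p = 0.0444) and among genes at 5 CPM or more in 2 libraries (edgeR adjusted p = 0.0218). Pmaip1 did not pass with limma voom (adjusted p = 0.0595) or in edgeR with a replicate block (adjusted p = 0.161). Nor did it in edgeR with RLE size factors (adjusted p = 0.0522), A1 copies summed (0.0521), the gene-length trend removed (0.0512) or no filter (0.0683). With any 1 library left out it did not pass either (log2 fold change 1.55 to 2.48). Per unit of length, Mcl1 was 2.27 and 2.57 times Pmaip1 in the knockout libraries and 14.2 and 5.58 times in the WT libraries.

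Bax, the partner effector of BAK, was at 190.3 and 219.3 CPM in the knockout and at 149.5 and 134.4 CPM in WT, without overlap. Its log2 fold change was 0.53 (SE 0.13, edgeR adjusted p = 0.0908), and DESeq2 gave an adjusted p of 0.00614. Bbc3, which encodes the p53-induced BH3-only protein PUMA, was at 66.8 and 93.6 CPM in the knockout and at 45.7 and 64.5 CPM in WT, with a log2 fold change of 0.55 and an SE of 0.24 (edgeR adjusted p = 0.258). In all, 0 of the 11 tested genes of the family outside the 10 passed (2, Pmaip1 and Bax, at unadjusted p under 0.05 and by DESeq2), and their median log2 fold change was 0.16. Bcl2a1c, Bok and Hrk were not counted in any library.

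**Figure D3:**
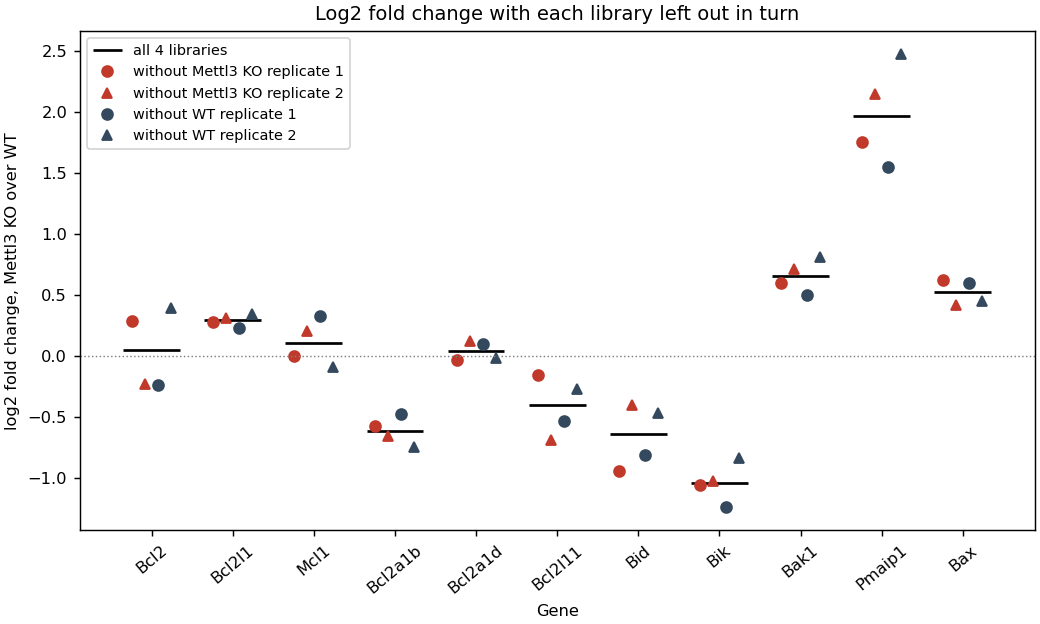
Log2 fold change, Mettl3 knockout over WT (vertical axis), with all 4 libraries (black lines) and with each library left out in turn (red symbols for knockout, dark symbols for WT). Bmf is not drawn, because WT without replicate 2 holds no count of it. Values of Bcl2, Mcl1 and Bcl2a1d fall on both sides of 0, while Bcl2l1, Bak1, Pmaip1 and Bax stay above 0 and Bcl2a1b, Bcl2l11, Bid and Bik stay below it.

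Upstream and downstream of the family, 5 genes of the lists examined passed the test, and 3 of them deliver a death signal to other cells. Among 9 death receptor, ligand and adaptor genes 2 fell and 0 rose, where 2.59% of all tested genes passed, and the median log2 fold change was 0.22. At an edgeR unadjusted p under 0.05 the list had 3 genes higher and 2 lower, and DESeq2 called 1 higher and 2 lower. Fasl, which encodes the ligand of the death receptor FAS, fell to 91.7 and 80.5 CPM in the knockout, against 242.3 and 406.0 CPM in WT (log2 fold change -1.91, SE 0.25, edgeR adjusted p = 0.0124). Tnfsf10, which encodes the ligand TRAIL, fell to 25.1 and 34.0 CPM in the knockout, against 73.9 and 67.6 CPM in WT (log2 fold change -1.26, SE 0.21, edgeR adjusted p = 0.0311). Fasl did not pass without knockout replicate 1 or 2 (edgeR adjusted p = 0.0618 and 0.0738), and Tnfsf10 lost its call whichever library was left out (0.0738 to 0.146). The adaptor gene Tradd was at 145.3 and 143.6 CPM in the knockout and at 111.2 and 106.0 CPM in WT (edgeR adjusted p = 0.136, DESeq2 adjusted p = 0.0388).

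Among 9 genes whose products act on the MCL1, BIM or BID proteins 1 fell and 0 rose, with a median log2 fold change of -0.12. Of all tested genes 1.51% were called lower and 1.09% higher. At an edgeR unadjusted p under 0.05 this list had 1 gene higher and 3 lower, and DESeq2 called 0 higher and 2 lower. Gzmb, which encodes the granzyme that cuts BID in target cells, fell to 79.6 and 90.7 CPM in the knockout, against 214.3 and 622.2 CPM in WT (log2 fold change -2.29, SE 0.45, edgeR adjusted p = 0.0487). The WT libraries differed widely: without WT replicate 2 the log2 fold change came to -1.33, and without WT replicate 1 to -2.88. Without knockout replicate 1 or 2, Gzmb did not pass (edgeR adjusted p = 0.488 and 0.453). It also lost its call with limma voom (0.111), and in edgeR with RLE size factors (adjusted p = 0.0511), the A1 copies summed (0.0508), the gene-length trend removed (0.0615), no filter on low counts (0.0658) or genes at 5 CPM or more in 2 libraries (0.135). Trim17, whose product marks MCL1 for degradation, held no count in the knockout and was at 0.676 and 2.95 CPM in WT, at least 15.3-fold lower where 3 counts in each library set the floor (edgeR adjusted p = 0.132, DESeq2 adjusted p = 0.0103). Huwe1, which encodes an MCL1 ubiquitin ligase, was at 80.4 and 84.1 CPM in the knockout and at 54.5 and 65.5 CPM in WT (edgeR adjusted p = 0.187). As these cytotoxic genes are typical of NKT1 cells, the lower NKT1 marker sums given above stand beside Fasl and Gzmb, and their part in the difference was not tested.

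Of 8 tested genes of the p53 pathway, which induces Pmaip1, Bbc3 and Bax, 1 rose and 1 fell, and the median log2 fold change was 0.22. Over all tested genes 1.09% were called higher and 1.51% lower. At an edgeR unadjusted p under 0.05 the list had 3 genes higher and 2 lower, and DESeq2 called 2 higher and 1 lower. Phlda3, a p53-induced inhibitor of AKT signalling, rose to 96.2 and 99.1 CPM in the knockout, against 43.0 and 41.8 CPM in WT (log2 fold change 1.20, SE 0.16, edgeR adjusted p = 0.0134). Sesn1, a stress-response gene induced by p53 and FOXO factors, fell to 319.7 and 302.0 CPM in the knockout, against 488.0 and 499.4 CPM in WT (log2 fold change -0.67, SE 0.10, edgeR adjusted p = 0.0185). Neither passed without knockout replicate 1 or 2 (edgeR adjusted p = 0.0759 and 0.0898 for Phlda3, 0.099 and 0.131 for Sesn1), and Phlda3 did not pass without WT replicate 2 (0.0565). Cdkn1a, which encodes the cell cycle inhibitor p21, was at 5.25 and 2.77 CPM in the knockout and at 0.142 and 0.438 CPM in WT (log2 fold change 3.81, SE 0.91, edgeR adjusted p = 0.0635, DESeq2 adjusted p = 0.0108). The p53 gene itself, Trp53, was at 366.3 and 339.9 CPM in the knockout and at 417.0 and 432.0 CPM in WT (edgeR adjusted p = 0.190).

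Of 13 genes that carry cytokine signals to the BCL2 family 0 passed, with 1 higher and 5 lower at unadjusted p under 0.05, 1 higher and 2 lower by DESeq2, and a median log2 fold change of -0.31. Il7r, the interleukin-7 receptor that sustains Bcl2 in T cells, was at 967.4 and 1034 CPM in the knockout and at 1268 and 1267 CPM in WT (log2 fold change -0.34, SE 0.08, edgeR adjusted p = 0.0692). Jak3, its signalling kinase, was at 187.6 and 179.7 CPM in the knockout and at 239.5 and 296.2 CPM in WT (edgeR adjusted p = 0.088), and Stat5b, the transcription factor downstream, was at 153.9 and 143.3 CPM against 109.3 and 111.6 CPM (edgeR adjusted p = 0.129). DESeq2 called all 3, with adjusted p of 0.00219, 0.00665 and 0.0327. Among genes at 5 CPM or more in 2 libraries, Il7r (edgeR adjusted p = 0.0364) and Jak3 (0.0457) passed, and Jak3 also passed without WT replicate 1 (0.0431).

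The core of the death machinery showed no called gene. Of 14 tested apoptosome, caspase and mitochondrial genes 0 passed (0 at unadjusted p under 0.05 and 0 by DESeq2), and their median log2 fold change was -0.15. Of these Vdac3, a channel of the outer membrane, had the smallest p, at 177.6 and 193.6 CPM in the knockout and 212.7 and 234.3 CPM in WT (edgeR adjusted p = 0.272). Vdac1, another such channel, had an edgeR adjusted p of 0.441. Casp8, the caspase that cuts BID, was at 484.1 and 472.0 CPM in the knockout and at 452.9 and 517.5 CPM in WT. Of 6 inhibitor of apoptosis genes 0 passed (1, Birc3, at unadjusted p under 0.05 and 0 by DESeq2), with a median of 0.11, and Birc3 was at 164.8 and 192.7 CPM in the knockout and at 107.3 and 143.3 CPM in WT (edgeR adjusted p = 0.155), ahead of Birc5 (0.296) and Xiap (0.430). Of 7 NF-kB genes, whose products can induce the A1 copies and Bcl2l1, 0 passed (0 at unadjusted p under 0.05 and 0 by DESeq2), with a median of 0.021, and Nfkbia, Rel and Tnfaip3 had the smallest p (edgeR adjusted p = 0.293, 0.307 and 0.395). The m6A methyltransferase complex had 0 of 8 genes that passed (2, Virma and Rbm15, at unadjusted p under 0.05, by DESeq2 and among genes at 5 CPM or more in 2 libraries, and Virma also with total-count scaling), with a median of -0.099. Virma and Rbm15 were on the higher side in the knockout, with log2 fold changes of 0.57 and 1.13.

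**Figure D4:**
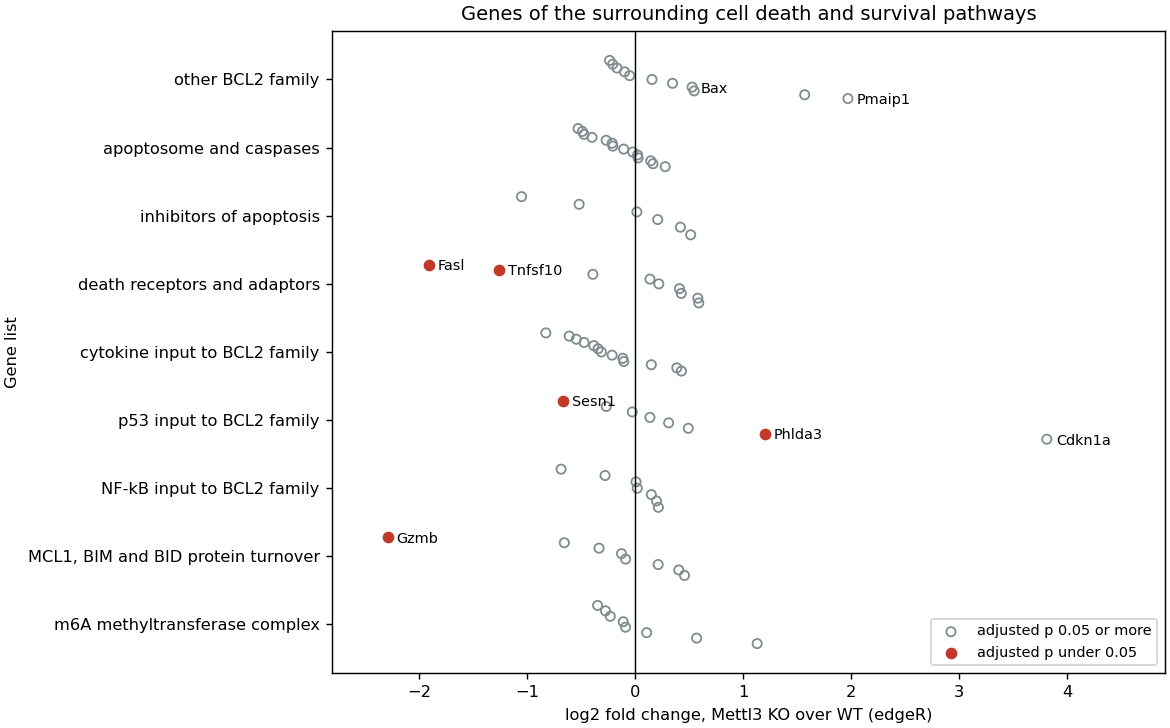
Log2 fold change, Mettl3 knockout over WT (horizontal axis), of the tested genes in 9 lists around the BCL2 family (rows). Filled red points passed at an adjusted p under 0.05 and open points did not, with names for the 5 that passed and for Pmaip1, Bax and Cdkn1a. Trim17 is not drawn, because the knockout holds no count of it.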

How the data were processed

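The authors deposited a table of unnormalized counts, each library a column, for 53715 Ensembl genes. The build mm10, HTSeq 0.6.1, STAR 2.6.0a, DESeq2 1.18.1 and FastQC 0.11.5 are named per the submitters' processing notes. Not given in the sources used here are annotation, strand setting and the handling of multiply mapped reads. IDs were matched without version to GENCODE M21 (GRCm38), 53620 of them, and coordinates are printed only where the version matched.

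From the counts, genes were kept by filterByExpr (14185 tested), scaled by TMM and compared with edgeR 4.0.16 (glmQLFit, legacy=FALSE, robust=TRUE, then glmQLFTest) in R 4.3.3 as a two-sided comparison without covariates over the 4 libraries. P-values were adjusted over all tested genes by Benjamini-Hochberg, and a gene was called under 0.05. SE is the log2 fold change over the square root of F. The script was tested on simulated data. DESeq2 1.42.0, limma 3.58.1 voom, other scalings and filters, a gene-length correction, summed A1 copies, a replicate block and leaving out each library were tried. RPKM uses the union of annotated exons. Poisson intervals, floors of 3 counts and depth cover counting error only, because Smart-seq2 reads carry no molecular identifier.

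Libraries of a genotype differed beyond counting noise (chi-square per degree of freedom 28.0 for the knockout pair, 45.6 for the WT pair), so each counted as 1 replicate. The 10 genes and all lists were chosen with earlier results of these data known. Named were all 10 genes, and from each pathway list the called genes and the 3 with the smallest p, of which 1 is not reported here. Casp8 and Trp53 were named after their values were seen.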

Additional observations from a re-analysis of the deposited data

How the results depend on the processing

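The count of called genes among the 10 was 0 under all alternatives, though 2 of these did not test every gene. Bmf was absent among genes at 5 CPM or more in 2 libraries, and the summed A1 copies replaced Bcl2a1b and Bcl2a1d. Of 127 refitted log2 fold changes of the 10 genes 120 kept their direction and their side of the threshold. The 7 that reversed all came from leaving out 1 library, and the values then ranged from -0.238 to 0.393 for Bcl2, -0.0845 to 0.334 for Mcl1, -0.0348 to 0.121 for Bcl2a1d and -0.493 to 8.67 for Bmf. The upper value of Bmf is a fit against a WT library with no count, where a floor of 3 counts puts the knockout at least 18.2-fold higher. Over all genes, 154 were called higher and 214 lower. These counts were 665 and 676 with DESeq2 and 333 and 401 among genes at 5 CPM or more in 2 libraries, and 93 were called higher with no filter. Leaving out 1 library gave 29 to 102 higher and 56 to 231 lower; the lone library of a genotype is then assumed to vary like the other. With the replicate number as a block, 7 were called higher and 26 lower, and Fasl, Tnfsf10, Phlda3, Sesn1 and Gzmb did not pass (edgeR adjusted p = 0.0856, 0.125, 0.0837, 0.105 and 0.113). Deviations of same-numbered libraries from their genotype means had r = -0.0125 across genes. With 2 libraries per genotype both replicate numbers give the same r by construction, so it cannot settle whether same-numbered libraries share a batch. Whether they share more than a number is not given in the labels. The cause of these shifts was not tested. With 2 libraries per genotype, the 95% interval of 5 of the 10 genes still includes a 2-fold difference.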
